A study of Mus musculus with 6 samples.

Results

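Neurons and neuron-like cells use their own RNA-binding proteins to set which exons enter a messenger RNA and how long that RNA lasts. Here 10 genes of such families were followed in mouse epidermal cells: Elavl2, Elavl3, Elavl4, Celf3, Celf4, Rbfox1, Rbfox2, Rbfox3, Srrm3 and Srrm4. They were chosen by gene name from 4 families with neural members, with earlier results of these data known. They are not all members of these families, and Rbfox2 is broadly expressed. All 10 were found, each in 1 row, among 54532 genes. The study sorted cells from the dissociated dorsal epidermis of C57BL/6 mice of both sexes, aged 4 weeks, and made Smart-seq2 libraries (full-length cDNA from little RNA) of 500 sorted events each. The NCAM-enriched group had 3 libraries of DAPI-negative cells bound and sorted by an antibody to PSA-NCAM, the polysialylated form of the neural cell adhesion molecule used as a surface marker of Merkel cells. The bulk skin group had 3 libraries of DAPI-negative epidermal cells with no such selection, so it could hold Merkel cells too. Neither group carried a transgene or was treated. The labels and the methods do not say that the replicates came from separate animals, so the p-values measure only the spread between these libraries.

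The neuronal Elavl (Hu) proteins bind U-rich stretches of messenger RNA and stabilise them, while their relative Elavl1 is made in most cells. Celf proteins bind GU-rich RNA and act on splicing and translation. Rbfox proteins bind GCAUG and switch exons on or off by where they sit, and Rbfox3 is the nuclear antigen NeuN of mature neurons. Srrm3 and Srrm4 promote the inclusion of microexons, very short exons found mostly in neural transcripts. Merkel cells are touch-sensing epidermal cells that share vesicle release and excitability with neurons. The comparison asked which of these regulators differed between NCAM-selected and unselected epidermal cells. Gene counts give the level of each regulator, not the splicing of its targets.

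Values are read counts per gene and normalised CPM, counts corrected for library size and composition. Library totals ran from 1343190 to 4481830 counts, so that 1 count was worth 0.216 to 0.773 CPM. Mean levels of the regulators ran from 2.81 to 84.7 CPM in the NCAM-enriched group and from 0 to 38.2 CPM in bulk skin. Many values in single libraries lay near the limit of 1 count. The label of the NCAM-enriched group was checked against 9 Merkel cell markers (Atoh1, Sox2, Pou4f3, Isl1, Krt8, Krt18, Krt20, Piezo2, Chga). All 9 had higher CPM in each NCAM-enriched library than in any bulk skin library, as did 11.1% of all genes tested. Of them 5 were called higher by edgeR (adjusted p at most 0.05), beside 1.04% of all genes tested. These markers, like all lists, were chosen with earlier results of these data known. Their summed level was 1529, 1602 and 451 CPM in NCAM-enriched libraries 1, 2 and 3 and 132 to 176 CPM in bulk skin, so library 3 held the least. Other cells differed as well. The summed level of 8 suprabasal keratinocyte markers was 12988 to 29860 CPM against 1055 to 1419 CPM, while 7 T cell markers summed to 5.85 to 168 CPM against 3127 to 3381 CPM. In NCAM-enriched library 2, 6 fibroblast markers summed to 33003 CPM, against 363 and 41.7 CPM in libraries 1 and 3 and 10356 to 18198 CPM in bulk skin. In NCAM-enriched library 3, 6 basal keratinocyte markers summed to 30792 CPM. That sum was 9649 and 7129 CPM in libraries 1 and 2 and 11854 to 16282 CPM in bulk skin. Of these markers Itga6 alone was not highest in NCAM-enriched library 3. In such pooled cells, fewer cells of a type and less RNA per cell cannot be told apart.

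None of the 10 regulators passed the test between the groups (edgeR quasi-likelihood, adjusted p at most 0.05 over 13157 genes). Of them, 6 had enough counts to be tested, and 2 of these (Srrm3 and Elavl2) had an unadjusted p under 0.05, as did 2493 of the 13157 genes. Among all genes tested, 1.04% were called higher and 1.55% were called lower after NCAM selection. DESeq2, the test named in the methods of the study, called 2 regulators higher, Srrm3 and Elavl2, where it called 5.06% of its genes higher and 7.1% lower. limma-voom called 1, Srrm3, where it called 2.67% of genes higher and 6.45% lower. With the replicate number as a block edgeR called 0 regulators, and 0.38% of genes higher and 0.699% lower. In that fit 1 regulator had an unadjusted p under 0.05, as did 2034 of the 13157 genes. Elavl3, Elavl4, Rbfox3 and Srrm4 did not pass the count filter. On simulated counts with the spread of these libraries the edgeR fit missed moderate changes, so a regulator that did not pass may still differ. Leaving out a bulk skin library left almost no gene to pass. Without libraries 1, 2 and 3 in turn, 0%, 0% and 0.00678% of genes were higher and 0.0858%, 0.141% and 0.109% lower. Leaving out an NCAM-enriched library left 0.422% to 7.35% of genes higher. The calls therefore depend on all 3 bulk skin libraries, and a call lost there is not particular to 1 gene. Srrm3 and Elavl2 were also the only regulators with no overlap in CPM between the groups, and both lay higher in the NCAM-enriched libraries, as did 11.1% of all genes tested. The plot of levels by library shows how unevenly the remaining genes were spread.

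**Figure D1:**
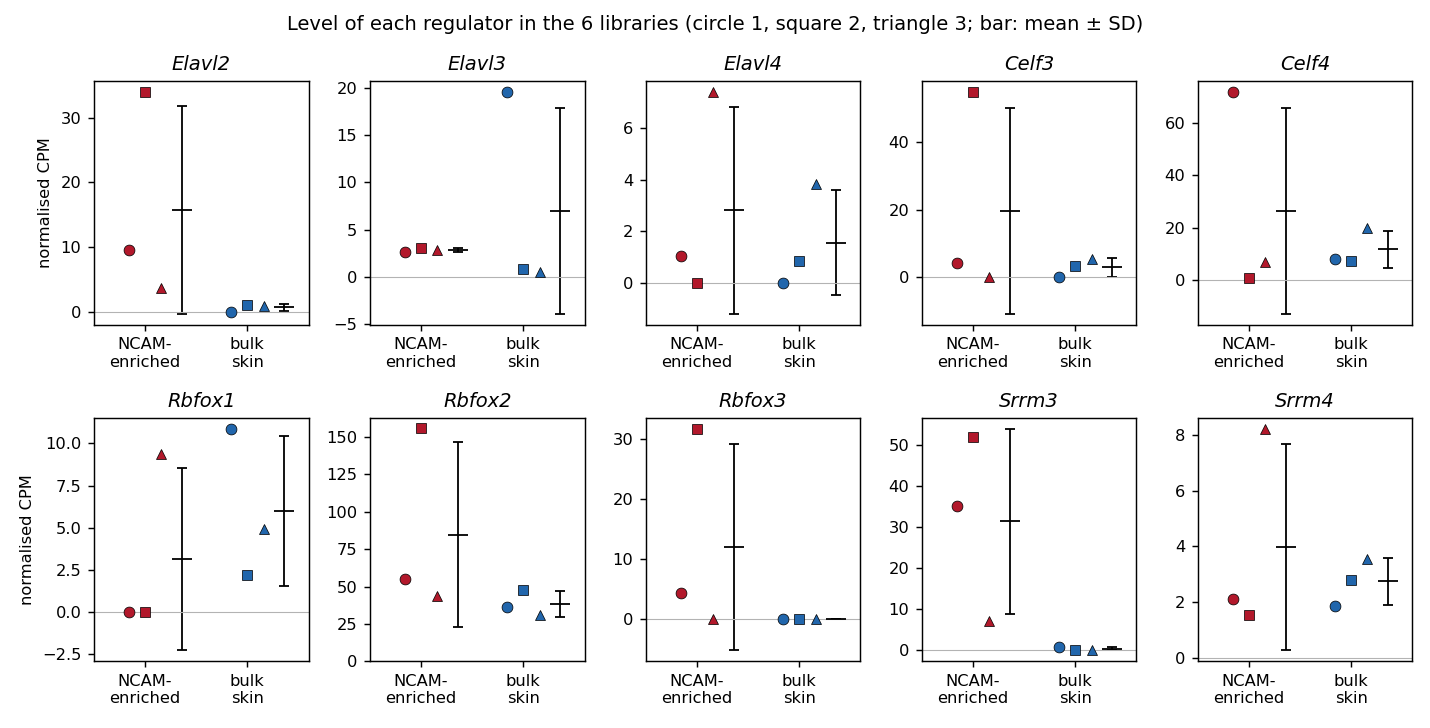
Normalised CPM (vertical axis, a separate linear scale in each panel) of the 10 regulators in the NCAM-enriched libraries (red) and the bulk skin libraries (blue). Circles, squares and triangles mark libraries 1, 2 and 3, and the bar gives the mean with 1 SD (n = 3). Srrm3 and Elavl2 have every red point above every blue point, Rbfox3 has no blue point above 0, and Celf3, Celf4 and Elavl3 are each high in a single library.

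The starts of Srrm3, Srrm4 and Elavl2 are shown because these are the gene with the clearest difference, its closest relative, and the other gene whose groups did not overlap. The windows come from RefSeq (build GRCm38.p6), run from 250 bases before to 50 bases after an annotated start, and read 5′ to 3′ on the strand of the gene. Capitals mark E-box cores on either strand, of the form CAGATG or, as a second and separate search, of the form CAGCTG. These cores are bound by Atoh1 and other basic helix-loop-helix factors, and matches to the first and the second form cannot overlap.
Srrm3, chr5:135817856-135818155, plus strand: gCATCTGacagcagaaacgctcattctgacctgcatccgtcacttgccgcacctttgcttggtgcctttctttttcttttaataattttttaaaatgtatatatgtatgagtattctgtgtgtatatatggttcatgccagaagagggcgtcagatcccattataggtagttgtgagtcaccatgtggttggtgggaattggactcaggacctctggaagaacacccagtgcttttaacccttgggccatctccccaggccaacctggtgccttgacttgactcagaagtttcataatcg
Srrm4, chr5:116591768-116592067, minus strand: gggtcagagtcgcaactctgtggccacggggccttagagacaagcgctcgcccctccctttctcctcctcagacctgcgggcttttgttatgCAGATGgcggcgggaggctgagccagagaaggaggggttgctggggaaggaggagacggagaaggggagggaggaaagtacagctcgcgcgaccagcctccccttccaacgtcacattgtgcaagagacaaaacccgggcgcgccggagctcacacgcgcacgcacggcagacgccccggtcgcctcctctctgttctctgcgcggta
Elavl2, chr4:91399935-91400234, minus strand: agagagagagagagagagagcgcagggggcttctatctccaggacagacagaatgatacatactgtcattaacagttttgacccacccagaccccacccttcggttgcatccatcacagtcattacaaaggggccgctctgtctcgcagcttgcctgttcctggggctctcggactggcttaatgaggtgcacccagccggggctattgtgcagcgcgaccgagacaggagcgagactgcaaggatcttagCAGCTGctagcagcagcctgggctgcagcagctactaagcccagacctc
Each window holds 1 of the cores. CAGATG was found in 8 of the 23 windows of the regulators, from 4 of the 8 in the table (Celf3, Elavl4, Srrm3 and Srrm4), and in 17.2% of all 32851 windows. CAGCTG was found in 10 of the 23, from 5 of the 8 (Celf3, Elavl2, Elavl3, Elavl4 and Rbfox1), and in 16.3% of all windows. Windows of 1 gene are not independent, and no test was made. The GC content was 45.0% for Srrm3, 64.3% for Srrm4 and 57.0% for Elavl2. Elavl2 has 6 windows in the table, of which the most upstream is printed. The starts given for Srrm3 and Elavl2 lie inside these genes as GENCODE annotates them. Repressor element 1, the site of the neuronal gene repressor Rest, was searched by its left part TTCAGCACC on both strands. It was found in 0 of the 23 windows of the 8 regulators in the table and in 0.371% of all windows. Its short right part, GGACAG, was found in 3 of the 23 windows, from 2 of the 8 (Celf3 and Elavl2), and in 22.2% of all windows.

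Srrm3 (ENSMUSG00000039860, chromosome 5, 135806890 to 135874772, plus strand, GRCm38) showed the largest separation of the tested regulators. It had 66, 67 and 25 counts in NCAM-enriched libraries 1, 2 and 3, and 2, 0 and 0 counts in bulk skin libraries 1, 2 and 3. In CPM these were 35.1, 51.8 and 7.09 against 0.621, 0 and 0, means of 31.3 ± 22.6 and 0.207 ± 0.359 (SD, n = 3). Every NCAM-enriched library lay above every bulk skin library, and the lowest of them was the library with the lowest sum of Merkel cell markers. The part of these markers' cells in the Srrm3 values was not tested. Pooled over each group and scaled by library size, 158 counts against 2 gave a ratio of 136, with a 95% exact counting interval of 36.9 to 1129. The ratio was 241 without NCAM-enriched library 3 and 81.0 without bulk skin library 2, and without bulk skin library 1, where bulk skin held 0 counts and 3 counts were taken as the limit for the group, Srrm3 was higher by at least 65.0-fold. On the log2 scale the fit gave 7.09 ± 1.6 (SE), with an adjusted p of 0.0552 in edgeR and an unadjusted p of 0.00174. The adjusted p was 3.57e-05 with DESeq2, 0.0171 with limma-voom and 0.00106 when all genes with at least 1 count were kept in edgeR. The edgeR adjusted p was 0.0908 without NCAM-enriched library 1, where 0.422% of genes passed as higher and 1.57% as lower. It was 0.0483 without NCAM-enriched library 2, where 3.09% of genes passed as higher and 4.12% as lower. Without NCAM-enriched library 3 it was 0.0282, where 7.35% of genes passed as higher and 4.9% as lower. It was 0.224, 0.251 and 0.258 without bulk skin libraries 1, 2 and 3, where at most 1 gene passed as higher. None of its exonic bases are shared with another gene.

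Srrm4 (chromosome 5, 116439275 to 116591817, minus strand), the relative of Srrm3 best known as the neural microexon regulator, did not show this separation. It had 4, 2 and 29 counts in the NCAM-enriched libraries and 6, 13 and 13 in bulk skin, or 3.97 ± 3.70 against 2.75 ± 0.852 CPM. The groups overlapped, and the highest value was in NCAM-enriched library 3, where Srrm3 was lowest for its group. Srrm4 was not tested with all other genes. In the edgeR fit of all genes with at least 1 count its log2 fold change was 0.50, with a 95% interval of -3.50 to 4.51, so a difference of several fold in either direction lies within the interval. Within single libraries, the log2 ratio of Srrm3 to Srrm4 counts (0.5 added to each) was 3.89, 4.75 and -0.21 in the NCAM-enriched libraries and -1.38, -4.75 and -4.75 in bulk skin. The ratio needs no scaling between libraries. Its means differed by 6.44 on the log2 scale (two-sided exact permutation test, p = 0.1, which is the lowest possible with 3 libraries against 3, adjusted p = 0.4 over the 8 pairs of relatives compared). It was the only one of the 8 pairs whose groups did not overlap. Srrm4 shares 68 exonic bases with Srrm4os on the opposite strand, which had 1 count over the NCAM-enriched libraries and 9 over bulk skin.

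Elavl2 (HuB; ENSMUSG00000008489, chromosome 4, 91250763 to 91400785, minus strand) had 18, 44 and 13 counts in the NCAM-enriched libraries and 0, 5 and 3 in bulk skin. These were 9.56, 34.0 and 3.69 CPM against 0, 1.08 and 0.823 CPM, with means of 15.7 ± 16.1 and 0.634 ± 0.564. As for Srrm3, library 2 was highest, library 3 lowest, and no values overlapped. The pooled ratio was 16.1 (95% exact counting interval 7.76 to 38.6), with 44 of the 75 counts from library 2. The log2 fold change was 4.50 ± 1.52 (SE) with an edgeR adjusted p of 0.147, which ran from 0.00854 to 0.381 over 15 alternatives and passed the threshold in the 2 that used DESeq2. Leaving out NCAM-enriched library 2 gave a log2 fold change of 3.26, and leaving out bulk skin library 1 gave 3.89.

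The other neuronal Elavl genes did not share that pattern. Elavl3 (HuC; chromosome 9, 22015005 to 22052023, minus strand) had 5, 4 and 10 counts in the NCAM-enriched libraries and 63, 4 and 2 in bulk skin. Its 3 NCAM-enriched values were almost equal, at 2.66 to 3.09 CPM, whereas bulk skin library 1 stood at 19.6 CPM and the other bulk skin libraries at 0.865 and 0.548 CPM. The pooled ratio of 0.472 (NCAM-enriched over bulk skin) therefore rests on bulk skin library 1. Elavl4 (HuD; chromosome 4, 110203722 to 110351909, minus strand) had 2, 0 and 26 counts against 0, 4 and 14, or 2.81 ± 3.99 against 1.57 ± 2.01 CPM. It was highest in library 3 of each group, and the groups overlapped. In the fit of all genes with a count, the 95% intervals of the log2 fold change were -5.06 to 2.33 for Elavl3 and -3.56 to 5.28 for Elavl4. These intervals leave room for a change of either sign.

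Rbfox3 (NeuN; ENSMUSG00000025576, chromosome 11, 118489762 to 118911597, minus strand) was seen in the NCAM-enriched group alone, but not in all of it. It had 8, 41 and 0 counts in NCAM-enriched libraries 1, 2 and 3 and 0 counts in the 3 bulk skin libraries. Library 2 thus held 31.7 CPM, library 1 held 4.25 CPM, and library 3, like bulk skin, held none. Pooled, and with 3 counts as the limit for bulk skin, Rbfox3 was higher by at least 28.0-fold. Leaving out NCAM-enriched library 3 gave at least 59.1-fold, leaving out library 2 at least 5.67-fold, and leaving out a bulk skin library at least 16.7 to 20.2-fold. It did not pass the count filter. When all genes with at least 1 count were kept, its adjusted p was 0.0348 in edgeR, where 2.76% of 27884 genes were called higher and 2.66% lower, and 0.0173 in DESeq2, where these shares were 7.32% and 6.38%. Without NCAM-enriched library 3, which held 0 counts, Rbfox3 passed the count filter only through the NCAM-enriched libraries where it was seen. Its edgeR adjusted p there was 0.0433, where 7.35% of genes passed as higher and 4.9% as lower. That value is no support, since leaving out the library with 0 counts favours the call. Leaving out a bulk skin library gave adjusted p-values of 0.337 to 0.353, where at most 1 gene passed as higher.

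Rbfox2 (ENSMUSG00000033565, chromosome 15, 77078990 to 77307004, minus strand), the broadly expressed Rbfox gene, was the most abundant regulator in both groups. It had 103, 202 and 153 counts in the NCAM-enriched libraries and 116, 222 and 112 in bulk skin, which gave 54.7, 156 and 43.4 CPM against 36.0, 48.0 and 30.7 CPM. NCAM-enriched library 2 stood above the rest, and library 3 lay within the range of bulk skin. The log2 fold change was 1.14 ± 0.59 (SE; edgeR adjusted p = 0.340), with a 95% interval of -0.19 to 2.47. Rbfox1 (chromosome 16, 5885355 to 7411526, plus strand), which is prominent in neurons and muscle, went the other way in 2 libraries. It had 0 counts in NCAM-enriched libraries 1 and 2 and 33 in library 3, against 35, 10 and 18 in bulk skin. Library 3, at 9.36 CPM, lay within the bulk skin range of 2.16 to 10.9 CPM. The log2 fold change was -0.85 ± 1.67 (adjusted p = 0.845), with a 95% interval of -4.63 to 2.93. Without library 3 it was -7.15 with both remaining NCAM-enriched libraries at 0 (adjusted p = 0.0777). The 8 skeletal muscle markers summed to 283, 163 and 11.9 CPM in the NCAM-enriched libraries and 31.4 to 33.7 CPM in bulk skin. Acta1 made up most of the sum in libraries 1 and 2 (497, 207 and 22 counts, and none in bulk skin), Tnni2 had none in the NCAM-enriched libraries and 63, 85 and 98 in bulk skin, and Mylpf had 31, 0 and 15 against 38, 48 and 21. The other 5 had 0 to 18 counts in any library. Their part in the Rbfox1 values was not tested.

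Both Celf genes were high in a single NCAM-enriched library. Celf3 (chromosome 3, 94478295 to 94492198, plus strand), a brain-enriched member, had 8, 71 and 0 counts in the NCAM-enriched libraries and 0, 15 and 20 in bulk skin. Library 2 alone, at 54.9 CPM, stood above bulk skin. Its log2 fold change of 2.72 ± 2.0 (SE; edgeR adjusted p = 0.527) became -0.52 without that library. Celf3 shares 74 exonic bases with Riiad1 on the opposite strand, which had 0 counts over the NCAM-enriched libraries and 11 over bulk skin. Celf4, a neuronal regulator of RNA stability and translation encoded on chromosome 18, had 135, 1 and 24 counts against 26, 33 and 72. NCAM-enriched library 1 held 71.7 CPM and library 2 only 0.773 CPM, while bulk skin held 7.13 to 19.7 CPM. The log2 fold change was 1.18 ± 1.33 (adjusted p = 0.70), and -1.54 without NCAM-enriched library 1. No direction can be given for either gene.

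**Figure D2:**
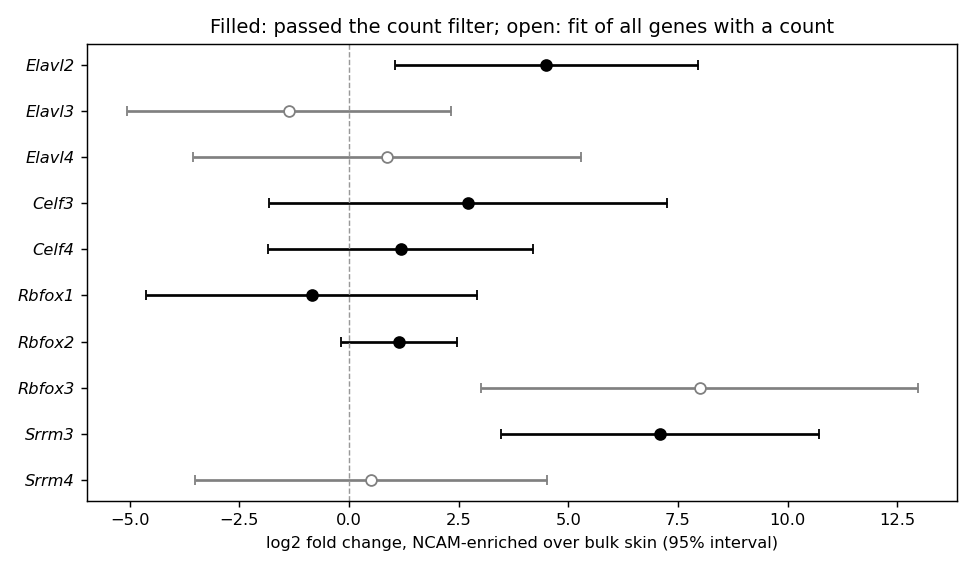
Log2 fold change of each regulator, NCAM-enriched over bulk skin (horizontal axis), with its 95% interval. Filled points are from the edgeR fit after the count filter, and open points are the 4 genes below that filter, taken from the fit of all genes with at least 1 count. The intervals of Srrm3 (3.46 to 10.72), Elavl2 (1.04 to 7.96) and Rbfox3 (3.02 to 12.97) lie above 0 before adjustment, and those of the other genes cross 0.

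Single libraries carried different sets of these genes. NCAM-enriched library 2 was the highest of the 6 libraries for Elavl2, Celf3, Rbfox2, Rbfox3 and Srrm3, and library 1 for Celf4. NCAM-enriched library 3 was the highest for Elavl4 and Srrm4, and bulk skin library 1 for Elavl3 and Rbfox1. Counts of at least 1 were found for 9, 8 and 8 of the 10 genes in the NCAM-enriched libraries and for 6, 8 and 8 in bulk skin. Library 2 was the shallowest of the 6, and its summed fibroblast and melanocyte markers were also the highest. Of the 6 fibroblast markers Col1a1, Col1a2 and Pdgfra were highest there, while Dcn and Lum were higher in all 3 bulk skin libraries and Col3a1 in 1 of them. The 7 melanocyte markers summed to 142 CPM there and to 10.6 to 44.6 CPM elsewhere, from Dct, Mitf and Tyr, with Pmel, Mlana, Tyrp1 and Slc45a2 at 0. Their part in these values was not tested. The 15 sensory neuron markers summed to 218 to 342 CPM in the NCAM-enriched group and 129 to 146 CPM in bulk skin, mostly from Avil and Ntrk2. Calca had 0 counts in the NCAM-enriched libraries and 14, 5 and 38 in bulk skin, and Mrgprd had 0 in all 6. Nefm had 0, 32 and 29 counts against 0 in bulk skin, Nefl 4, 7 and 2 against 3, 0 and 0, Prph 7, 0 and 0 against 0, 1 and 0, and P2rx3 0, 0 and 29 against 0, 32 and 0. The remaining 7 markers had at most 29 counts in any library. Their part in the result was not tested.

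Per kilobase of exon, which allows genes to be ranked, the order of levels in the NCAM-enriched group was Rbfox2 (10.4 ± 7.62 CPM per kb), Srrm3 (4.89 ± 3.52), Celf3 (3.60 ± 5.58), Celf4 (3.08 ± 4.58), Rbfox3 (2.06 ± 2.96) and Elavl2 (1.89 ± 1.93). Rbfox1, Elavl4, Srrm4 and Elavl3 followed at 0.415 to 0.709 CPM per kb. The ranges over libraries of all neighbours in this order overlapped. In bulk skin Rbfox2 came first with 4.70 ± 1.09 CPM per kb, apart from Rbfox1 (1.36 ± 1.01) and Celf4 (1.36 ± 0.818), and the ranges of all later neighbours overlapped. Srrm3 moved from the ninth place in bulk skin, at 0.0323 CPM per kb, to the second in the NCAM-enriched group.

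**Figure D3:**
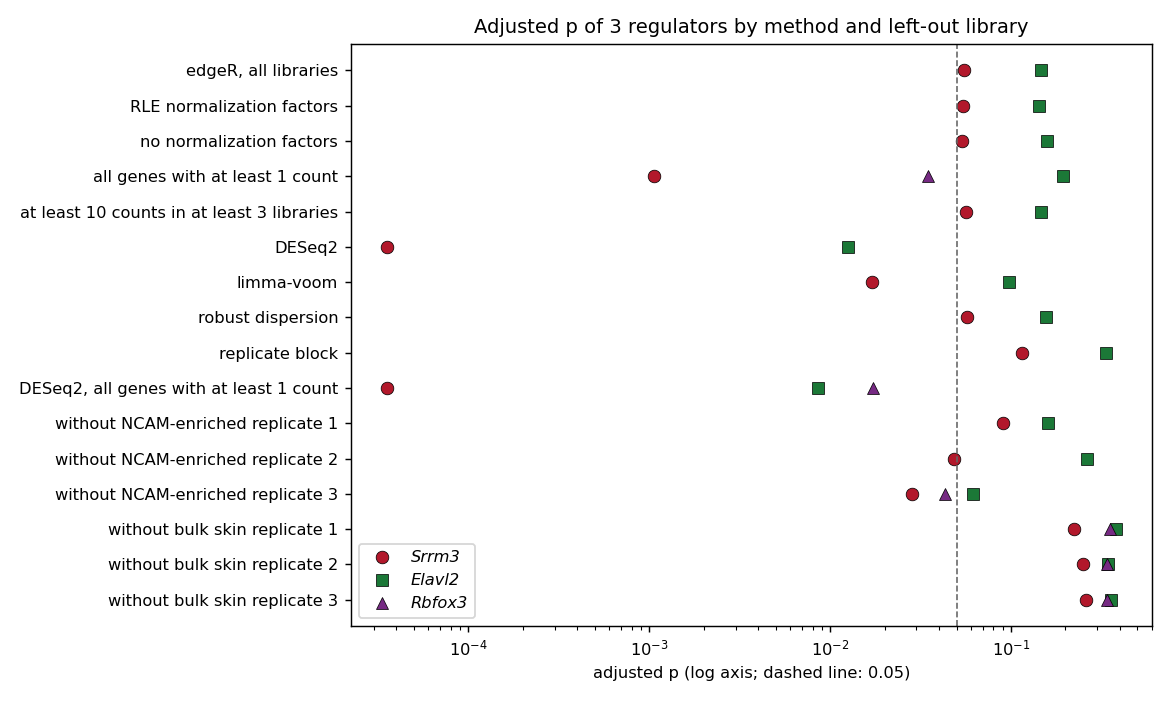
Adjusted p (horizontal log axis, dashed line at 0.05) of Srrm3, Elavl2 and Rbfox3 in the edgeR comparison and in each alternative (vertical axis). Srrm3 passes in 6 of 15 alternatives, Elavl2 in 2 of 15 and Rbfox3 in 3 of the 6 that could test it. For Rbfox3 these include the fit without NCAM-enriched library 3, where it had 0 counts, so that pass is no support. None of the 3 genes passes when a bulk skin library is left out, where at most 1 gene of all tested passes as higher.

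Of 7 other members of the same families 5 were tested, and edgeR called none in either direction. Their median log2 fold change was 0.36 beside -0.07 for all genes tested. Celf5 (0, 0 and 5 counts against 1, 0 and 0) and Celf6 (19, 0 and 2 against 0, 0 and 8) were below the count filter. Celf2, a Celf gene also made in lymphocytes, had 59.5, 38.6 and 10.2 CPM against 184 to 194 CPM. Its log2 fold change was -2.39 ± 0.60 (SE; edgeR adjusted p = 0.0698). The adjusted p was 0.00542 with DESeq2 and 0.0109 with limma-voom, and Celf2 passed as lower in 5 of 15 alternatives. The bulk skin values all lay above the NCAM-enriched ones, and T cell markers, which summed to at most 168 CPM against at least 3127 CPM, moved the same way. Their part in the result was not tested. Srrm1 and Srrm2, general splicing cofactors related to Srrm3 by their repeats, had log2 fold changes of 1.0 and 0.90 (adjusted p = 0.170 and 0.263).

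Of 17 other neural splicing and RNA-binding regulators 13 were tested and edgeR called none, with a median log2 fold change of -0.06. Nova1, a splicing factor of neurons, had 0, 2 and 0 counts in the NCAM-enriched libraries and 92, 108 and 76 in bulk skin. Pooled, it was 80.4-fold lower in the NCAM-enriched group (95% exact counting interval 22.1 to 668), which became 38.1-fold when NCAM-enriched library 3 was left out and at least 43.3-fold when library 2 was. Its edgeR adjusted p was 0.0809, and it was 0.000519 with DESeq2. Cpeb3, a regulator of translation, had 26.0, 159 and 35.2 CPM against 10.2 to 12.5 CPM (log2 fold change 2.71 ± 0.79 SE, edgeR adjusted p = 0.0986). Leaving out NCAM-enriched library 2 gave 1.44 (edgeR adjusted p = 0.210). With all libraries, the adjusted p of Cpeb3 was 0.0101 with DESeq2 and 0.179 with limma-voom. The relative of Nova1, Nova2, was below the count filter with 12, 45 and 0 counts against 2, 1 and 0, and Khdrbs2, another neural splicing regulator, with 2, 33 and 0 against 0, 1 and 0. Nova2 and Khdrbs2 were picked out after their values were seen, for the same order of libraries as Rbfox3. Mbnl2, the most abundant of the list, had a log2 fold change of 0.43 (adjusted p = 0.628).

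Of 20 broadly expressed or epithelial splicing regulators 19 were tested and edgeR called none (median log2 fold change 0.24). Esrp1, which drives epithelial splicing, had 345 ± 27.1 against 165 ± 9.22 CPM with no overlap. Its log2 fold change was 1.06 ± 0.32 (SE; edgeR adjusted p = 0.105). The adjusted p was 0.0152 with DESeq2 and 0.0470 with limma-voom. Hnrnpl, a general splicing factor, had 342 ± 105 against 150 ± 14.8 CPM (adjusted p = 0.108 in edgeR and 0.0335 with DESeq2). Hnrnpk had a log2 fold change of 0.24 (adjusted p = 0.788).

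Of 10 genes known to carry neural microexons, all 10 were tested and 2 rose, beside 1.04% of all genes, with a median log2 fold change of 0.67. Eif4g1, a translation initiation factor, averaged 577 ± 167 against 166 ± 16.6 CPM, a log2 fold change of 1.80 ± 0.37 (SE; edgeR adjusted p = 0.0413). Daam1, a regulator of actin, averaged 165 ± 35.1 against 46.1 ± 11.4 CPM (1.84 ± 0.40, adjusted p = 0.0496). Both are made in many tissues, and the counts do not show whether their microexons were used. Leaving out NCAM-enriched library 1 ended both calls (0.0739 and 0.0992). So did leaving out a bulk skin library, where at most 1 gene passed as higher, while the log2 fold changes were 1.66 to 1.80 for Eif4g1 and 1.65 to 2.0 for Daam1. The call of Daam1 was also lost with RLE normalization factors, just past the threshold, and with none (0.0513). Trio, a guanine nucleotide exchange factor, had a log2 fold change of -0.36 (adjusted p = 0.660). Kdm1a, which encodes the demethylase LSD1 that the study examines and has a neuronal microexon, had 101 ± 40.8 against 64.3 ± 3.06 CPM (adjusted p = 0.471), and Rest, the repressor of neuronal genes, 89.8 ± 36.0 against 55.8 ± 17.7 CPM (adjusted p = 0.501). Kdm1a and Rest were named for their part in the study's subject, outside the rule.

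Of 7 messenger RNAs known as targets of neuronal Elavl proteins all were tested and edgeR called none (median log2 fold change 0.63). Gap43, a growth cone protein, had 118, 83 and 41 counts in bulk skin and none after NCAM selection. It was lower by at least 47.0-fold with 3 counts as the limit (edgeR adjusted p = 0.0521). The adjusted p was 4.26e-05 with DESeq2 and 0.00674 with limma-voom. Without NCAM-enriched library 3 the bound was 22.3-fold. The edgeR adjusted p was then 0.0393, where 7.35% of genes passed as higher and 4.9% as lower. Without library 2 it was 0.0211, where 3.09% passed as higher and 4.12% as lower. It was 0.0698 without library 1, and 0.230 to 0.285 without a bulk skin library, where at most 0.141% of genes passed as lower. Nova1 belongs to this list too. Cdkn1a, an inhibitor of the cell cycle, had 1617 ± 680 against 535 ± 108 CPM (log2 fold change 1.6 ± 0.47 SE, edgeR adjusted p = 0.0980). The adjusted p was 0.00847 with DESeq2 and 0.0282 with limma-voom.

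**Figure D4:**
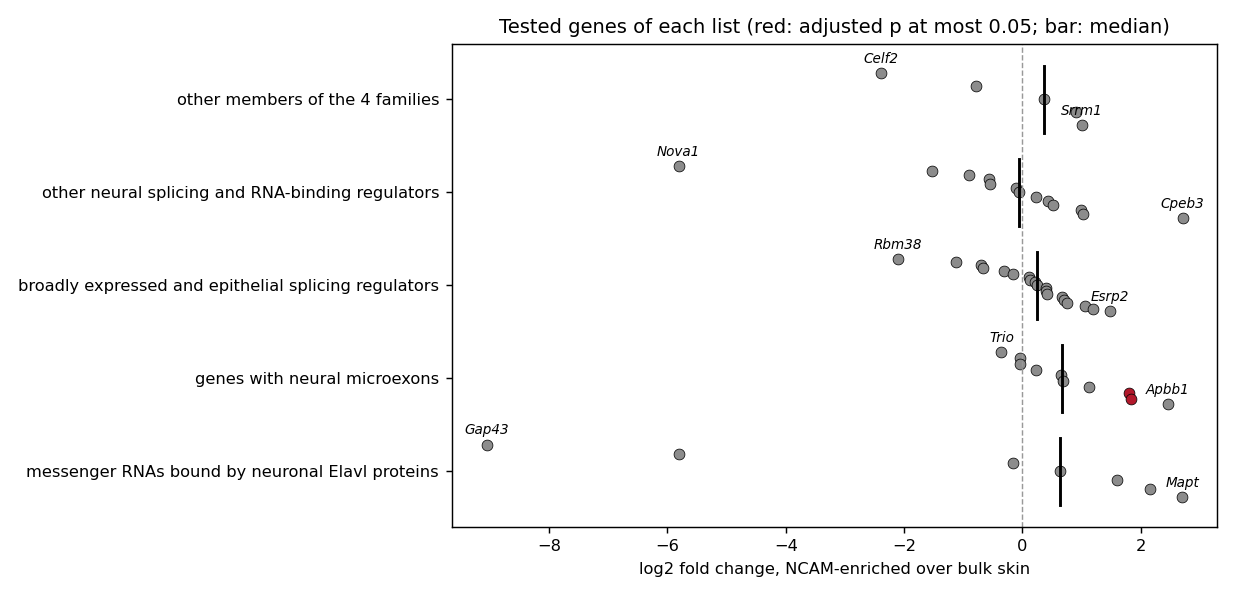
Log2 fold change (horizontal axis) of the tested genes in 5 related gene lists, with 1 point per gene, red where the edgeR adjusted p was at most 0.05, and a bar at the list's median. The medians lie between -0.06 and 0.67, the only red points are Eif4g1 and Daam1, and Nova1 and Gap43 lie far below 0.

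The tested genes outside these lists whose profile over the 6 libraries lay nearest to that of Srrm3 were Gm11512, Mpst and Pax6. Their centred log2 CPM differed from those of Srrm3 by 0.26, 0.30 and 0.36 on average. They were picked for this likeness over the same libraries, so the likeness of their counts and p-values follows from the choice. Gm11512 had 47, 68 and 26 counts in the NCAM-enriched libraries and 1, 0 and 1 in bulk skin (edgeR adjusted p = 0.0457). Mpst, a sulfurtransferase, had 63, 69 and 35 against 4, 1 and 3 (adjusted p = 0.0527), and Pax6, a transcription factor of eye, brain and endocrine cells, had 41, 47 and 13 against 1, 1 and 0 (adjusted p = 0.0608).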

How the data were processed

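The authors trimmed single-end reads of adapters and polyA, discarded highly abundant sequences, mapped the rest to GRCm38 by STAR and assigned them to genes by featureCounts. They deposited the counts without normalization. Which annotation release and strand setting they used was not given in the sources used here, so reads of overlapping genes cannot be told apart. Without molecular identifiers PCR copies cannot be removed, so counting intervals and floors cover counting error only.

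Groups came from the labels. All genes were fitted in R 4.3.3 with edgeR 4.0.16 (filterByExpr, TMM, quasi-likelihood F-test, Benjamini-Hochberg adjustment, threshold 0.05). SE is the absolute log2 fold change over the square root of F, and intervals are 95%. The common biological coefficient of variation was 0.744. Lengths and positions came from GENCODE M21, which holds 54495 of the 54532 gene IDs. The fit was tested on simulated data, where it gave nearly all changed genes the right sign, called most very large changes and missed moderate ones. Alternatives were DESeq2 1.42.0, limma-voom (limma 3.58.1), other normalization factors and filters, robust dispersion, a replicate block and leaving out each library, and DESeq2 without the count filter, an alternative added after seeing the data. The within-library ratios were compared by an exact permutation test in scipy 1.17.1, also added after seeing the data. The 10 genes and all lists were chosen with earlier results of these data known. Named genes were all 10 regulators, from each related list the 2 genes with the smallest p and the most abundant gene not called, and the 3 nearest profiles to the regulator with the smallest p. Deviations from the group mean of same-numbered libraries correlated at 0.0226, 0.000250 and -0.00436, so replicate numbers were not treated as pairs.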

Additional observations from a re-analysis of the deposited data

How the results depend on the processing

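The count of regulators called higher was 0 in edgeR, beside 1.04% of all genes. It was 2 with DESeq2 (Srrm3, Elavl2) beside 5.06%, and 1 with limma-voom (Srrm3) beside 2.67%. Without the count filter it was 2 in edgeR (Srrm3, Rbfox3) beside 2.76%, and 3 in DESeq2 (Srrm3, Elavl2, Rbfox3) beside 7.32%. Without a single library it ran from 0 to 2, where 0% to 7.35% of genes were called higher. The 2, Srrm3 and Rbfox3, came without NCAM-enriched library 3, where Rbfox3 had 0 counts. The 0 of the remaining alternatives stood beside 1 or 2 regulators at an unadjusted p under 0.05. In the alternatives with 0, from 2034 to 2897 genes had such a p, of 13157 to 15144 tested. No alternative called a regulator lower. The log2 fold changes of Srrm3 (6.18 to 9.49), Elavl2 (3.26 to 4.98), Rbfox2 (0.34 to 1.38) and Rbfox1 (-7.15 to -0.13) kept their sign in all 15 alternatives. Without a single library Celf3 ran from -0.52 (without NCAM-enriched library 2) to 3.41, Celf4 from -1.54 (without NCAM-enriched library 1) to 1.74 and Hnrnpk from -0.042 (without NCAM-enriched library 2) to 0.36. Celf4 also turned to -0.27 with limma-voom and -0.61 with the replicate block. With the replicate block the adjusted p was 0.115 for Srrm3, 0.0974 for Eif4g1 and 0.119 for Daam1, and 50 genes were called higher and 92 lower in place of 137 and 204. The cause was not tested. The difference in the log2 ratio of Srrm3 to Srrm4 was 5.63 with a pseudocount of 1 and 5.47 to 7.95 without a single library.

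Of the 10 genes 4 fell below the count filter, and the intervals of Elavl3, Elavl4, Srrm4, Celf3, Celf4, Rbfox1 and Rbfox2 hold changes of either sign.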
